A study of Oryzias latipes with 7 samples.

Results

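A set of 112 probe sets was at least 4-fold lower in medaka ovarian follicles at 8 h before spawning than at every other sampled time. They were found among 47773 probe sets above a filter on low values, of 63698 on the array. A probe set belongs to the set when the largest gap between its 7 sorted log2 intensities is 2 or more, a 4-fold difference, and only the 8 h array lies below that gap. The dip at 8 h is therefore how the members were chosen and is given as a description without a test. Of the probe sets kept, 115 (0.241%) stood at least 4-fold below every other array at 8 h, and 3 of these had a larger gap elsewhere in their profile and were left out. All 112 members passed the filter, and the same 112 were found without it.

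Medaka (Oryzias latipes) is a small teleost that spawns daily under long days. Follicles were taken from fish kept at 27 °C with 14 h of light and 10 h of dark, and total RNA of 100 pooled follicles was hybridised to 1-colour NimbleGen arrays for the times of 47, 35, 32, 23, 14, 8 and 2 h before spawning. All groups share species, housing and tissue, no strain, treatment or age is given in the labels used here, and each time has 1 array. The description of the 2 h sample says 5 h, against 2 h in its other labels.

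An ovarian follicle is an oocyte with its surrounding granulosa and theca cells. At the end of yolk uptake a surge of luteinizing hormone acts on the follicle cells, which make a progestin that starts oocyte maturation, with breakdown of the germinal vesicle and resumption of meiosis. The follicle layer then ruptures and releases the egg. A full-grown oocyte transcribes little and carries a store of maternal mRNA, whose stability and poly(A) tails are regulated during maturation, while the follicle cells remain transcriptionally active. The arrays measured oocyte and follicle cells together, so fewer cells of a type and less RNA per cell cannot be told apart. Labelling used Cy3 random nonamers. How first-strand cDNA was primed is not stated in the labels used here.

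The identifiers of the probe sets matched 0 entries of the reference gene table, and the files pair them with no gene name. The tissue label could therefore not be set against marker genes of oocyte, granulosa, theca or blood cells, and gene lists were not counted. The members are described by their levels, and 4 of them are named by identifier.

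Values at single times carry no replicate error. The nearest measure of the spread between arrays is the 3 h interval from 35 h to 32 h, in which the members differed by a median of 0.31 in log2 intensity, with 95% of them within 1.33. Over all probe sets kept the corresponding values were 0.24 and 1.02. The deposited series table places these 2 arrays at 2 h and 14 h. The median log2 levels of the members on them were 8.86 and 8.89, against 5.57 at 8 h. Spread at the level of the lows was therefore not measured. Between these arrays 0.366% of all probe sets kept were lower by 4-fold or more at 32 h and 0.406% higher, in a comparison of 1 array with 1 other. The share that stood 4-fold below all 6 other arrays at 8 h was 0.241%, and chance lows of single arrays among the members cannot be told apart from lows of the stage.

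The array numbers form 2 series, of 6 digits (47, 23, 14 and 2 h) and of 8 digits (35, 32 and 8 h). The median intensity of an array ran from 599 at 8 h to 703 at 47 h, and it was lower on all 3 arrays of the 8-digit series than on the other 4. Within that series the median log2 difference of the members from 35 h to 8 h was -3.13 and from 32 h to 8 h -2.98, where the rule fixes the direction and a size of at least 2. By the per-array files the 32 h and 8 h arrays lie 24 h apart. The labels give no clock time, and an effect of the time of day was not tested. With each array centred on its median, 81 of the 112 kept the 4-fold gap and no other probe set gained it. The 25th percentile of intensity was highest at 8 h, at 76.9 against 68.1 to 73.6 on the other arrays. Quantile normalization gave 143 probe sets, 107 of them members. The deposited series table places 5 of the 7 arrays at other times than the per-array files do. Times given here are those of the per-array files unless stated, and the order of levels among the other times would change with the series table. It gives the same array for 8 h. The rule asks only which array is 8 h, so the members are necessarily the same 112 with its times.

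OLAT0001S00027730 had the largest gap. Its intensities at 47, 35, 32, 23 and 14 h were 863, 418, 1004, 694 and 773, followed by 30.4 at 8 h and 475 at 2 h. The 8 h array lay 13.8-fold below the lowest of the others, the 35 h array, while the other 6 stayed within a log2 range of 1.26. On the 8 h array this level ranked at percentile 8.4 of all probe sets, against 51.6 at 14 h.

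OLAT0001S00017455 had the next largest gap. Its intensities over the same 5 earlier times were 943, 418, 1179, 557 and 776, followed by 32.1 at 8 h and 448 at 2 h. The 8 h value was 13.0-fold below the 35 h value, the lowest of the others. These 2 profiles were nearly alike, with log2 levels that differed by 0.0021 to 0.32 on every array. Whether they report the same transcript was not tested.

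K_OLAT0000S00013758 had the largest difference between 8 h and 2 h. From 47 h to 14 h its intensities were 4586, 2091, 2046, 533 and 319, and they were 43.3 at 8 h and 2320 at 2 h. It was lower at each successive time until 8 h and stood at 2 h 53.5-fold above 8 h, close to its level at 35 h and 32 h.

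OLAT0001S00013429 was the other member named for its difference between 8 h and 2 h. From 47 h to 14 h its intensities were 6018, 1977, 3185, 3736 and 3060, and they were 420 at 8 h and 19045 at 2 h. The 2 h level was 45.4-fold above that at 8 h and above every earlier array. With the times of the series table this highest level falls at 23 h. Its percentile on the array was 45.5 at 8 h and 97.2 at 2 h, so its low was not at the bottom of the intensity range.

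**Figure D1:**
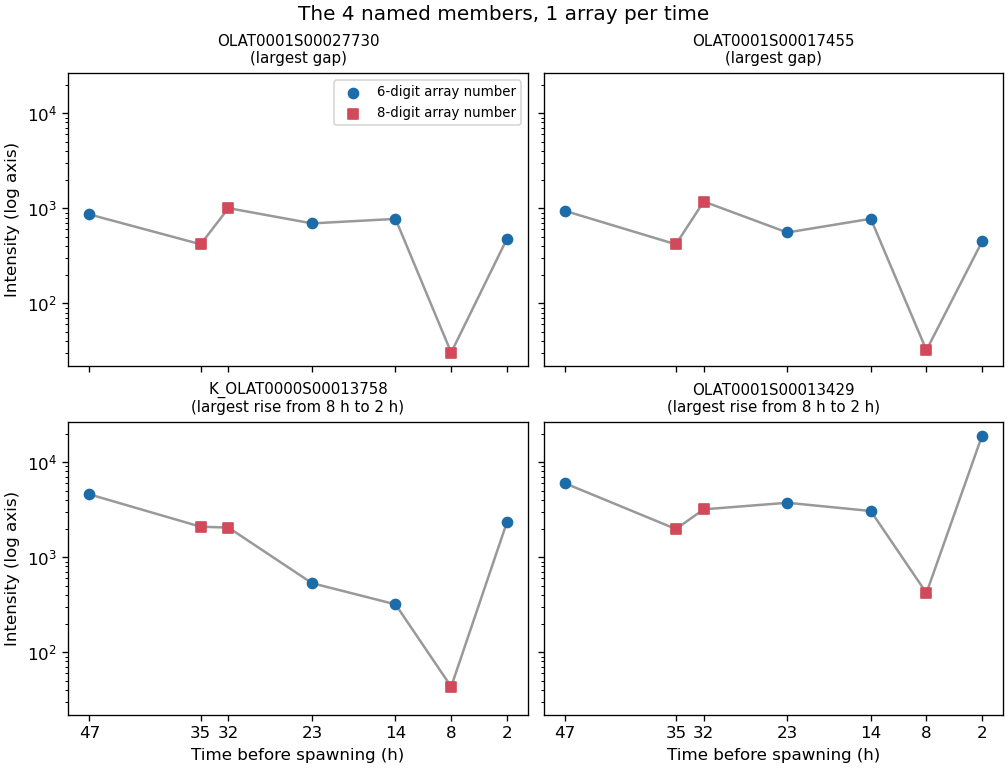
Intensity (log axis) of the 4 named members against hours before spawning, with 1 array per time, circles for the 6-digit and squares for the 8-digit array numbers. All 4 are lowest at 8 h, and OLAT0001S00013429 reaches 19045 at 2 h, above all its earlier values.

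Before the dip the members were of middling abundance. Their median log2 intensities at 47, 35, 32, 23 and 14 h were 9.48, 8.86, 8.89, 8.96 and 8.70, against 10.70, 10.60, 10.61, 10.68 and 10.66 over all probe sets kept. In intensity units the median was 712 at 47 h and 417 at 14 h, then 47.6 at 8 h, and 423 at 2 h. Individual members ranged between 113 and 20863 on the 14 h array, between 14.5 and 616 on the 8 h array and between 106 and 19045 on the 2 h array. The groups of values therefore overlap between members, although within each member 8 h is the lowest by the rule.

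The most abundant member, singled out after its values were seen, had intensities of 24598, 16638, 11612, 14755 and 20863 from 47 h to 14 h, then 148 at 8 h and 1664 at 2 h. Its rank on the array lay between percentiles 93.4 and 98.4 at the first 5 times, and was 33.3 at 8 h and 63.0 at 2 h. Its level at 2 h was thus between the 8 h low and its earlier levels, 3.65 below 14 h on the log2 scale.

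**Figure D2:**
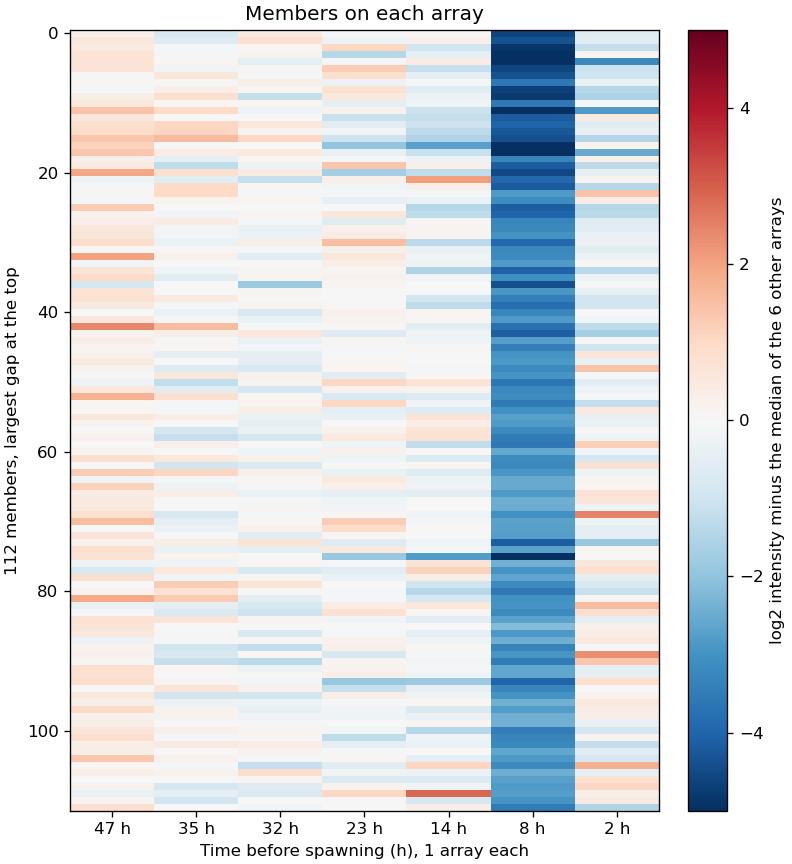
Each row is 1 of the 112 members, ordered by its gap with the largest at the top, and each column is 1 array. Colour gives log2 intensity minus the member's median over the 6 arrays other than 8 h, so the 8 h column is low by the rule. The 47 h column is mostly above 0, and the 2 h column holds values on both sides of 0.

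The gaps were mostly moderate. In 74 members the gap was from 2 to under 2.5, in 26 from 2.5 to under 3 and in 12 it was 3 or more, with a median of 2.34 and a highest value of 3.78. The 12 members with a gap of at least 3 had a median intensity of 774 (331 to 20863) on the 14 h array, 41.7 (14.5 to 148) on the 8 h array and 498 (213 to 1664) on the 2 h array. These 12 were chosen by that gap, so the distance of their 8 h values from the other arrays follows from the choice. Measured from the median of the other 6 arrays, the drop to 8 h was 3.18 in the median member and 6.72 in the deepest. Near the threshold, 20 members had gaps of 2.00 to 2.09, with a median log2 level of 5.43 at 8 h and 8.39 over the other arrays. The 29 probe sets just outside, with gaps of 1.90 to 2.00, had medians of 6.41 and 8.89.

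At 8 h most members lay at the low end of the array. On the 8 h array 85 of 112 (75.9%) ranked below the 25th percentile of all probe sets and 27 (24.1%) below the 10th, and 1 ranked above the array median. On each of the other 6 arrays 0 members ranked below the 25th percentile. The members were chosen by their 8 h value, and the rule puts every other value at least 4-fold above it. The contrast in rank between 8 h and the other arrays therefore follows largely from the rule. Of all probe sets kept, 4.62% ranked below the 25th percentile at 8 h and 2.53% to 3.72% on the other arrays. Members with higher levels at the other times also had higher levels at 8 h, with a Pearson r of 0.80 and a Spearman's rho of 0.75 over the 112 members, which share the arrays and the rule. At 8 h 76 members had an intensity under 64, where small additive differences weigh heavily on the log2 scale, and with 64 added to each intensity before the logarithm 20 of the 112 kept a gap of 2.

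**Figure D3:**
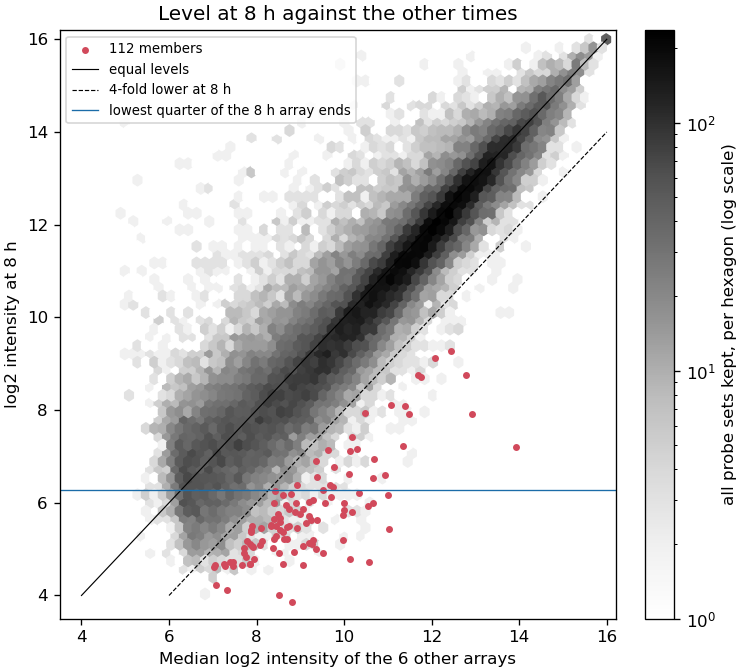
Log2 intensity at 8 h against the median log2 intensity of the other 6 arrays, with all 47773 probe sets kept as grey hexagons and the 112 members as points. The solid line marks equal levels, the dashed line a 4-fold lower level at 8 h and the horizontal line the 25th percentile of the 8 h array, below which 85 members lie.

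The members' median differences into and out of the dip were similar in size. Both use the 8 h value, and the rule sets each at 2 or more, so this likeness follows in part from the rule. The median log2 difference of the members was -2.91 from 14 h to 8 h, with a range of -7.14 to -2.05, and 3.02 from 8 h to 2 h, with a range of 2.00 to 5.74. By the rule all 112 were at least 4-fold lower at 8 h than at 14 h, as were 3.41% of all probe sets kept, and at least 4-fold higher at 2 h than at 8 h, as were 4.4%. The median differences over all probe sets kept were -0.11 and 0.11. Both intervals cross the array-number series, with 8 h in the 8-digit series and 14 h and 2 h in the 6-digit one. The members thus made up 112 of the 1627 probe sets that were 4-fold lower from 14 h to 8 h and 112 of the 2101 that were 4-fold higher from 8 h to 2 h.

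The levels on either side of the dip were compared next. By the rule both lie at least 4-fold above 8 h, which leaves out probe sets that stayed low at 2 h. The median member differed by -0.01 in log2 intensity between 14 h and 2 h, against 0.03 over all probe sets kept. In 79 of 112 members the 2 levels were within 2-fold, in 18 the 2 h level was at least 2-fold higher and in 15 at least 2-fold lower. The shares of 16.1% higher and 13.4% lower lie near the background of 11.7% and 14%. Across the members the 14 h and 2 h levels correlated at r = 0.69 (Spearman's rho 0.68), and the 35 h and 32 h levels at 0.92 (rho 0.90).

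The 18 members that were higher at 2 h had a lower median at 14 h than at the earlier times. Their median log2 levels from 47 h to 14 h were 9.71, 9.55, 9.42, 9.06 and 8.32, followed by 5.49 at 8 h and 10.47 at 2 h. The 15 that were lower at 2 h had medians of 9.98 to 10.29 over the 5 earlier times, 5.63 at 8 h and 8.62 at 2 h. The 79 members within 2-fold had medians of 8.55, 5.58 and 8.63 at 14, 8 and 2 h. The 3 groups had similar medians at 8 h and differed before and after it, which is in part how they were formed.

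Set against all 5 earlier arrays rather than 14 h alone, 56 members (50%) had a 2 h level within the range of those arrays, 35 (31.2%) below it and 21 (18.8%) above it. Over all probe sets kept the corresponding shares were 46.1%, 27.2% and 26.7%. The 2 h level was within 2-fold of the median of the 5 earlier arrays in 77 members (68.8%), at least 2-fold below it in 24 (21.4%) and at least 2-fold above it in 11 (9.8%), against 76.3%, 12.7% and 11% of all probe sets kept.

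**Figure D4:**
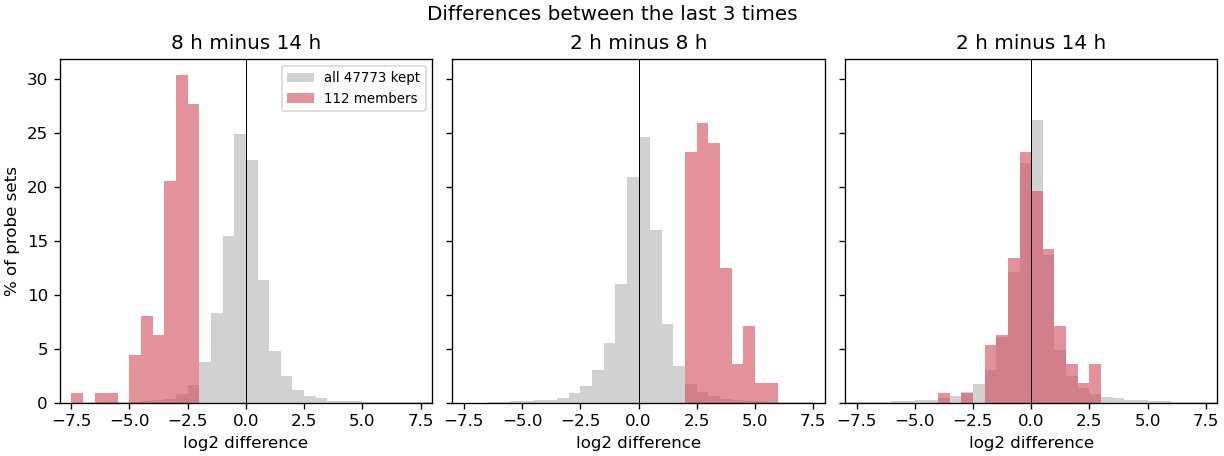
Distribution of log2 differences between the 14, 8 and 2 h arrays, as the percentage of the 112 members and of all 47773 probe sets kept. The members lie below -2 for 8 h minus 14 h and above 2 for 2 h minus 8 h, as the rule fixes, and centre on a median of -0.01 for 2 h minus 14 h.

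By the rule, the members had this low and a 2 h level at least 4-fold above that at 8 h, which need not be a full return. Without the 2 h array, 301 probe sets were low at 8 h alone by the same rule, and these held all 112 members. Of the 189 others, 79 were lower still at 2 h than at 8 h, 45 were higher at 2 h by less than 1 in log2 intensity, 62 by 1 to under 2 and 3 by 2 or more. The 189 had a median log2 level of 10.46 over the 5 earlier arrays, 6.51 at 8 h and 7.04 at 2 h, against 8.95, 5.57 and 8.72 for the members. The members thus made up 37.2% of the 301. This share and the rise from 8 h to 2 h rest on the time of the 2 h array. The series table gives 2 h to the array filed under 35 h, and leaving that array out gave 132 probe sets, which also held all 112. Members stay in such counts almost by construction, since leaving out an array above the gap cannot make that gap smaller. The 3 others above 2 had a larger gap elsewhere in their profile, and the 62 with a difference of 1 to under 2 had a median of 1.64.

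**Figure D5:**
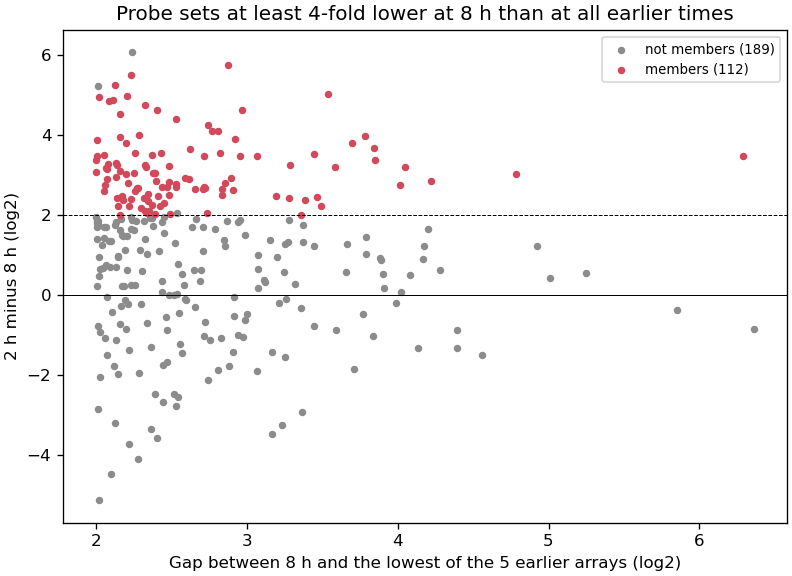
Log2 difference of 2 h minus 8 h against the log2 gap between 8 h and the lowest of the 5 earlier arrays, for the 301 probe sets low at 8 h when the 2 h array is left out. The dashed line marks a difference of 2. The 112 members lie above it, and the 189 others spread from -5.13 to 6.06, with 3 above the line.

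Among the 6 arrays other than 8 h, many members were highest at the earliest time. The highest of the 6 levels fell at 47 h in 49 of 112 members (43.8%), against 16.5% of all probe sets kept. It fell at 35 h in 9.82% of members (16.5% of all kept), at 32 h in 5.36% (13.2%) and at 23 h in 15.2% (12.1%). For 14 h the share was 7.14% (14.9%), and for 2 h it was 18.8% (26.7%). The lowest of the 6 fell at 2 h in 35 members (31.2%, against 27.2%) and at 47 h in 1 (0.893%, against 9.44%). For the 35, 32, 23 and 14 h arrays the shares were 16.1%, 20.5%, 9.82% and 21.4%, against 16.1%, 14.9%, 13.1% and 19.3%. The 49 members highest at 47 h had median intensities of 770, 471, 453, 397 and 364 from 47 h to 14 h, then 45.4 at 8 h and 305 at 2 h.

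By the times of the per-array files, in 3 of the 4 intervals before the dip more members were lower than higher at the later time. The series table places all of these arrays except that of 47 h at other times. Intervals and steps were not counted with its times. From 47 h to 35 h, 23 members (20.5%) were at least 2-fold lower and 3 at least 2-fold higher, beside 7.14% and 5.47% of all probe sets kept. The median log2 difference of the members in that interval was -0.47. From 23 h to 14 h, 18 (16.1%) were lower and 6 (5.4%) higher, beside 4.41% and 3.93%, with a median difference of -0.18.

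From 35 h to 32 h, 8 members (7.14%) were lower and 3 (2.68%) higher, beside 2.65% and 2.61%. Numbers were balanced in the interval of 32 h to 23 h, with 14 (12.5%) lower and 16 (14.3%) higher, beside 8.18% and 10.4%. Arrays of different number series meet in the 47 h to 35 h interval and again in that of 32 h to 23 h, and arrays of the same series in the remaining pair of intervals. In 8 members (7.14%) the level was lower at every step from 47 h to 14 h, against 2.51% of all probe sets kept, and in 0 it was higher at every step.

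The members also varied more between the other arrays than most probe sets. Their range over the 6 arrays was 1.70 in log2 intensity in the median member and 1.12 over all probe sets kept. It was under 2-fold in 22 members (19.6%, against 42.9%) and at least 4-fold in 43 (38.4%, against 20.4%). The 22 with the flattest profiles had median intensities of 422, 361, 329, 352 and 348 from 47 h to 14 h, then 48.1 at 8 h and 381 at 2 h. The members were less abundant than the other probe sets, and the part of abundance in these ranges was not tested.

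A trend over the 6 arrays other than 8 h was fitted. The rule also used these 6 values, the 2 h level among them, so the members' slopes are a description beside those of all probe sets. A slope on hours before spawning was fitted to every probe set kept by limma, in a model that also holds a term for the array-number series, and is given as the fitted log2 change from 47 h to 2 h. After Benjamini-Hochberg adjustment over 47773 probe sets limma called 0 members and 0 probe sets in either direction (0% of those tested, smallest adjusted p = 0.0974, and 0.0981 among the members). At an unadjusted p below 0.05, 31 members (27.7%) had a negative slope and 1 a positive slope, beside 9.04% and 4.88% of all probe sets kept. These 32 became 19 without the 35 h or the 32 h array and 18 under the series table's times. Over all 47773 probe sets kept the corresponding counts were 6652, 4353 and 4988, so the background fell as well. Leaving out the 23, 14 or 2 h array gave 30, 30 and 35 members, beside 5184, 7466 and 8793 probe sets. Without the 47 h array 22 of 112 members remained, while the background rose to 9200 of 47773. The members' share was then close to the background, and their median fitted change was -0.49. The 31 had fitted changes of -4.18 to -0.70, with a median of -1.60 and a median SE of 0.42. Slopes were negative in 84 of 112 members (75%), with a median fitted change of -0.72 (-1.09 with the times of the series table), and in 53.3% of all probe sets kept, with a median of -0.05. With the series table's times the 8-digit arrays in the fit fall at 14 h and 2 h, after all of the 6-digit ones. The array-number term then overlaps with time, so the -1.09 and the count of 18 are not directly comparable with the main fit. Without the 2 h array limma called 359 of the 47773 probe sets kept at an adjusted p below 0.05, and 3 of the 112 members were among them. The fit had 3 residual degrees of freedom per probe set, and limma drew each variance toward a value estimated over all probe sets. The p-values still rest on how single arrays scatter around the fitted lines.

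Beside the members, 180 probe sets were high at 8 h alone and 247 low at 2 h alone by the matching rules. The members had the smallest median gap of the 3 groups, at 2.34 against 2.66 and 2.70, a description of groups chosen by that gap. At the time of their low the members ranked at a median percentile of 17.3 on the array, and the probe sets low at 2 h alone at 36.4. Those low at 2 h alone stood at a median log2 level of 12.15 at the other times and at 7.72 at 2 h, and the members at 8.92 and 5.57. The differences between these groups were not tested.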

How the data were processed

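The authors deposited 1 RMA intensity per probe set and array on a linear scale, per the submitters' processing notes and the file headers. RMA corrects background, normalizes and summarises probes. Its settings and version are not stated in those sources. Log2 intensities were averaged over the 7 arrays, and only probe sets whose average exceeded the 25th percentile (6.24) were used. Times come from the developmental stage labels. Each probe set's 7 values were sorted and the members taken where the largest gap was at least 2 with 8 h alone below it. Levels and counts used Python 3.11.15 with pandas 2.3.3, and slopes were fitted over 6 arrays in R 4.3.3 with lmFit and eBayes of limma 3.58.1, with Benjamini-Hochberg adjustment over 47773 probe sets.

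The named members are the 2 with the largest gap and, of the others, the 2 with the largest log2 difference from 8 h to 2 h. The members, rules and lists were chosen with earlier results of these data known. Gene lists were not used, since 0 of 63698 identifiers matched the reference gene table (assembly ASM223467v1).

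The slope fit was tested on simulated data with 200 changed probe sets among 47773: of 50 for each size it called 0 with a log2 change of 1, 0 with 2, 4 with 4 and 27 with 6, and 2 unchanged ones. The number of arrays limits the precision. No time is replicated.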

Additional observations from a re-analysis of the deposited data

How the results depend on the processing

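The number of members was 112 without the filter, 81 with centred arrays, 143 after quantile normalization (107 of them shared), 109 with 6 probes per probe set and 112 with the times of the series table. It was 29 with the filter at the 50th percentile, 20 with an offset of 64, and 816 and 12 with gaps of at least 1 and 3. Within the 3 arrays of the 8-digit series, 1111 probe sets were at least 4-fold lower at 8 h than at both 35 h and 32 h. That count did not ask for the largest gap and is looser than the rule for members. Leaving out 1 of the other arrays gave 111 to 301, the highest without the 2 h array, with 110 to 112 of the members among them. That overlap is almost fixed, since leaving out an array above the gap cannot make it smaller. The number with the times of the series table is fixed too, since the 8 h array is the same. The offset of 64 moved the median log2 difference from 14 h to 8 h to -1.99 and that from 8 h to 2 h to 2.08. It moved the gap of K_OLAT0000S00013758 to 1.83, under the rule's limit, and those of the other named members to 2.35, 2.32 and 2.08. The median difference from 14 h to 2 h lay between -0.02 and 0.13 under all alternatives run. The slope fit of limma called 0 probe sets under every alternative that kept the 6 arrays, among them the robust prior (6680 at an unadjusted p below 0.05), and 0 to 359 when 1 array was left out, with all 359 found without the 2 h array. Without the 35 h or the 32 h array the array-number term takes up the remaining 8-digit array, so these fits rest on 4 arrays. No paired analysis was possible because each time has 1 array.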

Other observations

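Some members had nearly the same level on every array. Of 6216 pairs of members, 22 pairs, made of 26 members, differed by at most 0.5 in log2 intensity on each of the 7 arrays, a limit chosen after the values were seen. The pair with the largest gaps, OLAT0001S00017455 and OLAT0001S00027730, was among them. The rule gives all members a low at 8 h, and how often other probe sets of like level pair this closely was not counted. Whether such pairs report the same transcript was not tested, so whether the 112 probe sets stand for fewer genes is not known.

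The array holds identifiers of 2 forms, starting K_OLAT0000S and OLAT0001S, with no meaning stated in the labels or files. The K_ form made up 54 of 112 members (48.2%) and 35.5% of the probe sets kept, against 53.9% of those high at 8 h alone and 51.0% of those low at 2 h alone. The members of both forms had similar profiles, with a median log2 level of 8.67 and 8.82 at 14 h, 5.50 and 5.65 at 8 h and 8.71 and 8.74 at 2 h for the K_ and the other form.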
